A study of Solanum lycopersicum with 6 samples.

Results

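A small set of tomato leaf genes held strongly lower transcript levels at both times of heat stress (HS) at 45 °C, 1 h and 6 h, than at 0 h. The set holds 92 of the 19123 genes tested (0.481%). A gene was taken when its mean of log2(CPM + 0.5) over the replicates was lower by at least 2 both at 1 h and at 6 h than at 0 h. CPM is the number of counts of a gene per 1000000 counts of its library, with library sizes scaled by TMM factors, and a gene was tested when 2 or more libraries held 50 or more counts of it. The genes were thus chosen by their measured changes of 1 h and 6 h against 0 h, and those changes are given as a description, with no test.

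The RNA came from the fourth leaf of M82, a cultivar of Solanum lycopersicum bred for processing, and the plants were 4 weeks old and had been raised at 24 °C under 16 h of light. No transgene, mutant or chemical agent is named for any group. The groups are plants held at 45 °C for 0 h (the control), 1 h and 6 h, with 2 biological replicates each. Both HS times share the 0 h control and no unheated plants of the later times were analysed here, so that heat and time of day cannot be told apart. In RNA from whole leaves, fewer cells of a type and less RNA per cell cannot be told apart either.

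In plants, as in other eukaryotes, a sudden rise in temperature activates heat stress transcription factors (HSFs), which switch on genes of chaperones. At the same time many genes that serve growth and metabolism are transcribed less, and part of the existing mRNA pool is degraded or stored away. RNA-seq reads the resulting steady-state level of a transcript and does not separate synthesis from decay. The deposited table identifies genes by Solyc identifiers without names or functions, and 0 of the 92 genes could be matched to the reference table of gene symbols. The genes are therefore described by identifier, position and level, no role is given to any of them, and the labelled tissue could not be checked against marker genes.

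Depth was even, with 25147160 to 30738632 counts per library, and a count of 0 allows at most 0.0872 to 0.126 CPM (3 counts per library, counting error only). Of all counts, the 92 genes took 0.832% and 0.782% in 0 h leaves, 0.117% and 0.112% in 1 h leaves, and 0.159% and 0.111% in 6 h leaves. Replicates of 1 h lay closer together than those of 0 h and 6 h, the chi-square statistic per tested gene between replicates being 19.1 for 0 h, 5.38 for 1 h and 23.9 for 6 h. No pair was within sampling noise, and all 6 libraries were kept as separate samples.

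The repressed genes held low but mostly detectable transcript levels under HS. The median over the 92 genes was 39.6 and 30.8 CPM at 0 h, 3.54 and 3.25 CPM at 1 h, and 4.59 and 3.55 CPM at 6 h. Summed levels were 8732 and 7899 CPM at 0 h, 1320.2 and 1290.2 CPM at 1 h, and 1399 and 915 CPM at 6 h. The sum was lower in each heated library than in either control library, which the choice of genes favours. The level left at 1 h was 12.5% of the 0 h mean for the median gene, and the level left at 6 h was 11.8%. Under 10% of the 0 h mean was left in 37 genes at 1 h, in 36 genes at 6 h, and in 23 genes at both times. Under 5% was left in 20 genes at 1 h and in 18 at 6 h, of which 13 were shared.

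**Figure D1:**
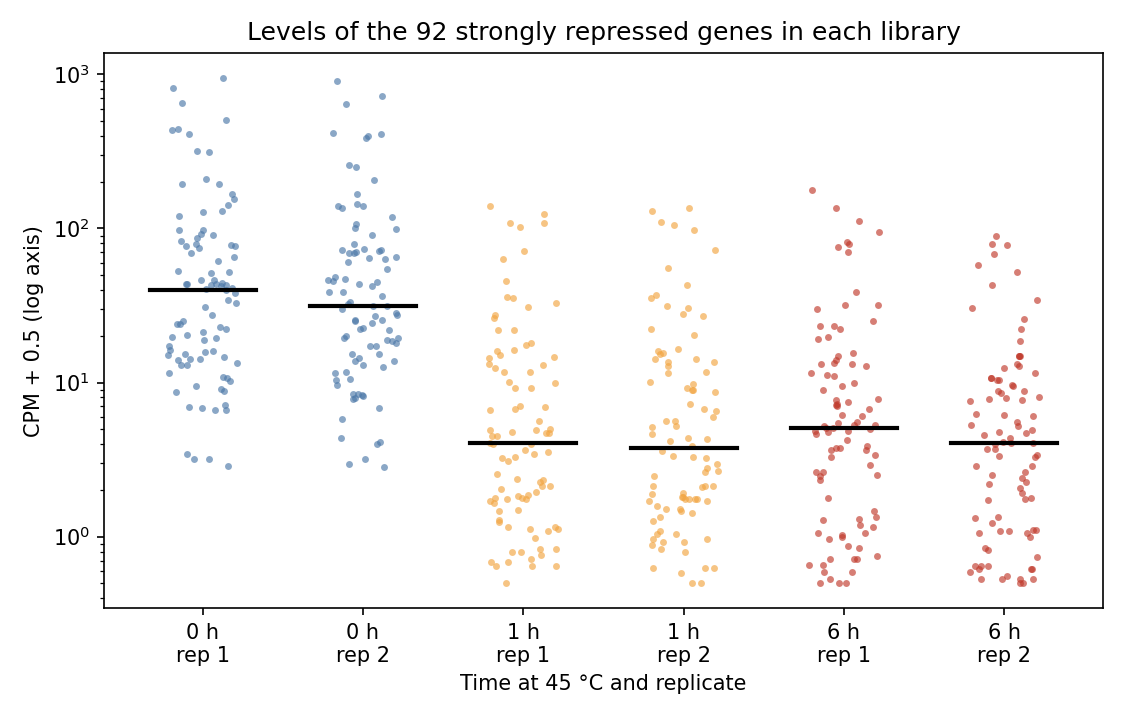
Level of each of the 92 repressed genes (points, CPM + 0.5 on a log axis) in the 2 libraries of 0, 1 and 6 h at 45 °C, with the median of each library as a black bar. The medians without the added 0.5 were 39.6 and 30.8 CPM at 0 h and lay between 3.25 and 4.59 CPM in the 4 heated libraries.

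All 92 genes held at least 50 counts in both 0 h libraries, and thus passed the filter on low counts through the control. In the heated libraries, 51 genes held at least 50 counts in all 4, while 22 genes held that many in none. In none of the genes did a heated library reach the lower control library. The choice of genes favours this gap, though it was made on means over the replicates and not on single libraries. The lower 0 h library exceeded the highest heated library by 2.63 to 24.0 times on the CPM + 0.5 scale, with a median of 4.25 times, and by at least 4 times in 51 genes. The narrowest gap was that of Solyc09g010530.3, a gene whose control replicates differed widely (120 and 60.3 CPM).

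Falls of this size against 0 h were found in more genes at 1 h than at 6 h, and part of them were shared. At 1 h 525 genes met a fall of at least 2 (2.75% of those tested), and at 6 h 279 genes did (1.46%). The 92 shared genes make up 17.5% of the first list and 33% of the second. In the opposite direction, 171 genes were higher by at least 2 at both times. In edgeR's quasi-likelihood test 31.3% of all tested genes were called lower at 1 h than at 0 h and 28.0% at 6 h than at 0 h, at an adjusted p-value below 0.05, and 63.5% and 58.8% in either direction. The 5350 genes called lower at 6 h became 3379 with library size as the only scaling. For the genes that fell by this much at 1 h alone (433 genes), the median change at 6 h was -0.78, and for those that did so at 6 h alone (187 genes), the median change at 1 h was -0.86 on the log2 scale.

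**Figure D2:**
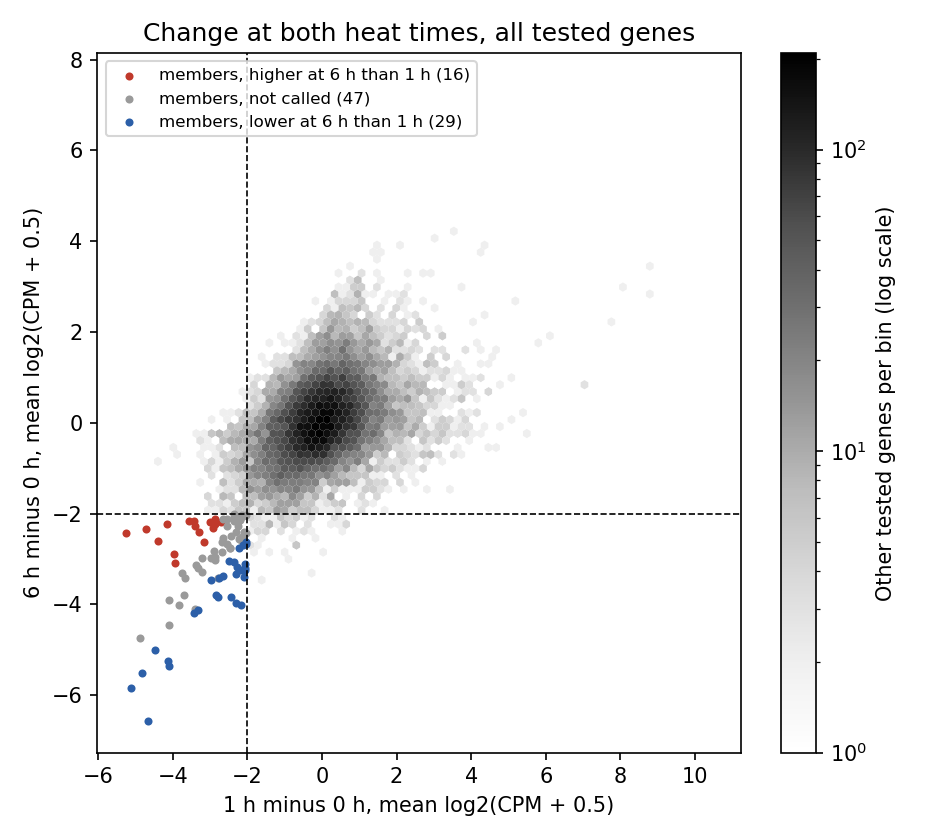
Change at 1 h (horizontal) and at 6 h (vertical) against 0 h, as differences of mean log2(CPM + 0.5), for all 19123 tested genes. Grey bins give the number of other genes on a log scale, coloured points are the 92 repressed genes by their call between 6 h and 1 h, and dashed lines mark the limit of -2. The genes called higher at 6 h (16 genes) lie along the limit of the 6 h axis and those called lower (29 genes) reach down to -6.56.

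The limit cuts through a continuous range of values. Just inside the limit at 1 h were Solyc11g044250.3 and Solyc01g079580.3, with a change of -2.03 each, and just outside it were Solyc04g080040.3 at -1.9999 and Solyc07g061890.1 at -1.98. At 6 h, Solyc12g088250.2 at -2.01 and Solyc08g083370.4 at -2.03 were just inside, and Solyc08g005930.1 and Solyc06g075090.4 were just outside, at -1.97 each. Membership near the limit also depended on single libraries. A fall of at least 2 at both times in the libraries of replicate 1 and in those of replicate 2, each taken alone, was held by 64 of the 92 genes. Without 0 h replicate 1, 72 of the genes were kept among 92 chosen, and without 6 h replicate 2, 74 were kept among 75.

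Among the most abundant repressed genes, the transcripts of a few dominated the set. At 0 h the 10 highest genes held 57.9% of the summed CPM of the set and the 3 highest held 28.1%. Solyc03g123410.1 (chromosome 3, 66310990 to 66311616, minus strand, M82 gene models) had 943 and 906 CPM at 0 h, 124 and 129 CPM at 1 h, and 177 and 79.0 CPM at 6 h. It was the highest of the set both in CPM and per length, with 1475 CPM per kb of gene span at 0 h. Its 6 h replicates lay on either side of the 1 h replicates. The next in CPM was Solyc04g054740.3, with 815 and 721 CPM at 0 h, 139 and 135 CPM at 1 h, and 111 and 77.5 CPM at 6 h. Solyc10g079200.2 had 647 and 638 CPM at 0 h, 108 and 96.9 CPM at 1 h, and 136 and 89.3 CPM at 6 h. Of these 3 genes, only Solyc04g054740.3 had 6 h values that were all below its 1 h values.

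Further down the order, the heated levels of abundant genes spread widely. Solyc07g065900.3 had 509 and 411 CPM at 0 h, 109 and 109 CPM at 1 h, and 75.2 and 30.2 CPM at 6 h. Solyc03g116730.4 had 441 and 414 CPM at 0 h, 102 and 104 CPM at 1 h, and 94.3 and 67.3 CPM at 6 h. Solyc02g086650.3 had 435 and 397 CPM at 0 h, 70.8 and 71.9 CPM at 1 h, and 80.9 and 51.6 CPM at 6 h. In all of these genes the 1 h replicates were nearly equal while the 6 h replicates differed, replicate 1 being the higher. Solyc07g005370.4, with 315 and 250.0 CPM at 0 h, likewise had its higher 6 h value in replicate 1, with 62.8 and 55.2 CPM at 1 h and 79.2 and 42.2 CPM at 6 h. So did Solyc01g097340.3, with 207 and 204 CPM at 0 h, 21.4 and 21.7 CPM at 1 h, and 29.6 and 14.4 CPM at 6 h.

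Giving the level per length raises short genes by the division itself. A span under 1 kb was held by 14.1% of the set and by 11.6% of all tested genes. After Solyc03g123410.1, the highest levels per kb of span at 0 h were those of Solyc08g078900.1 (398 CPM per kb, a span of 417 bp on chromosome 8), Solyc04g054740.3 (241 CPM per kb), Solyc01g005590.2 (239 CPM per kb, a span of 423 bp on chromosome 1) and Solyc07g005370.4 (226 CPM per kb). The median of the set was 14.9 CPM per kb, against 5.04 CPM per kb in the other tested genes. It was 9.29 CPM per kb in the genes with a large fall at 1 h alone and 18.1 CPM per kb in those with a large fall at 6 h alone. The choice by a fall from 0 h favours genes with a higher 0 h level, so nothing is read from the difference to the other genes. The counts of a gene include reads in introns, so that a level per kb of span is not a level per kb of mRNA.

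The deepest combined fall was that of Solyc10g005080.3 (chromosome 10, 59032 to 79163, plus strand), which also had the longest span of the set (20132 bp). It had 410.1 and 386 CPM at 0 h, 15.6 and 14.9 CPM at 1 h, and 3.14 and 4.39 CPM at 6 h. The level left was 3.83% of the 0 h mean at 1 h and 0.946% at 6 h, and the replicates of each time lay close together. Most of the other deep falls concerned genes of moderate level. Solyc12g098590.3 had 43.7 and 68.5 CPM at 0 h, 1.55 and 1.38 CPM at 1 h, and 0.840 and 0.582 CPM at 6 h. Solyc06g066700.1, with a span of only 249 bp, had 52.8 and 42.0 CPM at 0 h, 0.958 and 1.3 CPM at 1 h, and 2.12 and 0.727 CPM at 6 h. Its 6 h replicates lay above and below those of 1 h.

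Among the remaining genes with the deepest falls and over 3 counts in every library, the 6 h levels lay below, around or above those of 1 h. They lay below in Solyc10g052470.1, with 23.5 and 18.9 CPM at 0 h, 1.36 and 1.63 CPM at 1 h, and 0.778 and 0.611 CPM at 6 h. Solyc02g081340.3 (15.8 and 31.7 CPM at 0 h) had 0.737 and 0.922 CPM at 1 h and 0.809 and 1.28 CPM at 6 h. Solyc05g045670.4 (14.6 and 30.9 CPM at 0 h) had 1.25 and 1.09 CPM at 1 h and 1.96 and 0.494 CPM at 6 h. In these last genes the 6 h values overlapped those of 1 h. Solyc09g092130.3 had 23.4 and 18.1 CPM at 0 h, 1.14 and 1.01 CPM at 1 h, and 1.84 and 1.42 CPM at 6 h. Solyc10g083300.2 had 42.9 and 24.9 CPM at 0 h, 1.77 and 1.59 CPM at 1 h, and 4.11 and 2.85 CPM at 6 h, both 6 h values being above both 1 h values. The others of this list, Solyc05g053400.3 and Solyc09g010530.3, are described with the comparison of the HS times.

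In 4 genes, both libraries of a heated time held at most 3 counts. Solyc08g080040.4 had 519 and 958 counts at 0 h, 7 and 11 counts at 1 h, and 0 and 1 count at 6 h. Solyc11g066580.3 had 299 and 543 counts at 0 h, 4 and 10 counts at 1 h, and 1 and 1 count at 6 h. In both, the transcript was close to the limit of detection at 6 h. Solyc01g091870.3 had 216 and 158 counts at 0 h, 4 and 0 counts at 1 h, and no count in either 6 h library, which makes it at least 82.3-fold lower at 6 h than at 0 h with a floor of 3 counts per library. Solyc05g010270.1, the fourth, had 2.92 and 2.45 CPM at 0 h, no count at 1 h, and 0 and 0.0291 CPM at 6 h. It was at least 21.4-fold lower at 1 h than at 0 h on the same floor. It alone held at most 3 counts in both libraries of both heated times.

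The comparison of 6 h with 1 h of HS was not used to choose the genes, although the levels of both times entered the choice. It addressed which of the genes changed between the HS times. In edgeR's quasi-likelihood test, 16 of the 92 genes (17.4%) rose and 29 (31.5%) fell at 6 h relative to 1 h at an adjusted p-value below 0.05. Among all tested genes 34.7% were called higher, 31.7% lower and 66.3% in either direction, against 48.9% of the repressed genes in either direction. Since a gene had to stay at or under the limit at both times, the choice of genes restricts how far they could differ between 6 h and 1 h, so nothing is read from these shares beside those of all genes. The other 47 genes were not called, which does not show that their levels were equal, although 38 of them had a log2 fold change within 0.5 of 0. The CPM values of 6 h and 1 h did not overlap in 60 of the 92 genes (65.2%), against 85.6% of all tested genes. Without 1 h replicate 2, 10 were called higher and 22 lower.

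The balance of the 2 directions depended on the scaling. With library size as the only scaling, 28 genes rose and 17 fell, and with upper-quartile scaling 24 rose and 23 fell. Over all tested genes, these scalings moved the median log2 fold change to 0.48 and 0.29, against 0.06 with TMM. The median of the repressed genes moved along, to 0.40 and 0.21, against -0.02 with TMM, so that it lay slightly under the median of all genes each time.

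The genes that were higher at 6 h were low at 1 h and remained far below the control at 6 h, both of which follow from the limit at 6 h and the call itself. Over these 16 genes the level left was 1.90% to 13.1% of the 0 h mean at 1 h and 10.3% to 22% at 6 h, with a median of 5.67% at 1 h and 18.9% at 6 h. The largest rise was that of Solyc05g053400.3 (chromosome 5, 66133534 to 66134700, minus strand), with 14.3 and 9.86 CPM at 6 h, against 1.29 and 1.22 CPM at 1 h. Its control values were 60.6 and 71.3 CPM, and the log2 fold change of 6 h over 1 h was 3.26 ± 0.24 (SE, adjusted p = 1.0e-05, edgeR). Solyc09g010530.3 had 22.6 and 11.9 CPM at 6 h, against 2.80 and 2.72 CPM at 1 h, a change of 2.64 ± 0.43 (adjusted p = 0.00071). In both genes every 6 h value was several times every 1 h value.

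Smaller rises were seen in genes of lower level. Solyc06g065380.4 had 8.46 and 5.03 CPM at 6 h, against 1.44 and 1.26 CPM at 1 h with control values of 37.8 and 27.6 CPM and a log2 fold change of 2.31 ± 0.31 (adjusted p = 0.00026, edgeR). Solyc01g065700.3 had 3.27 and 1.69 CPM at 6 h, against 0.627 and 0.545 CPM at 1 h and 13.6 and 11.2 CPM at 0 h, and its change was 2.06 ± 0.39. Solyc12g088170.2 had 5.63 and 7.41 CPM at 6 h, against 1.84 and 1.26 CPM at 1 h and 32.4 and 54.1 CPM at 0 h, and its change was 2.06 ± 0.32. This gene differed from the others in having its higher 6 h value in replicate 2. Solyc02g085490.2 had 3.17 and 1.25 CPM at 6 h, against 0.774 and 0.545 CPM at 1 h and 13.7 and 10.1 CPM at 0 h, with a change of 1.72 ± 0.48 (adjusted p = 0.013). Its call was lost without 6 h replicate 1, where the change was 0.91 (adjusted p = 0.080), and without 1 h replicate 2 (adjusted p = 0.079). The abundant gene Solyc06g072710.3 also rose, with 69.9 and 57.1 CPM at 6 h, against 25.8 and 26.4 CPM at 1 h and 318 and 258 CPM at 0 h (change 1.28 ± 0.15, adjusted p = 0.00012).

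**Figure D3:**
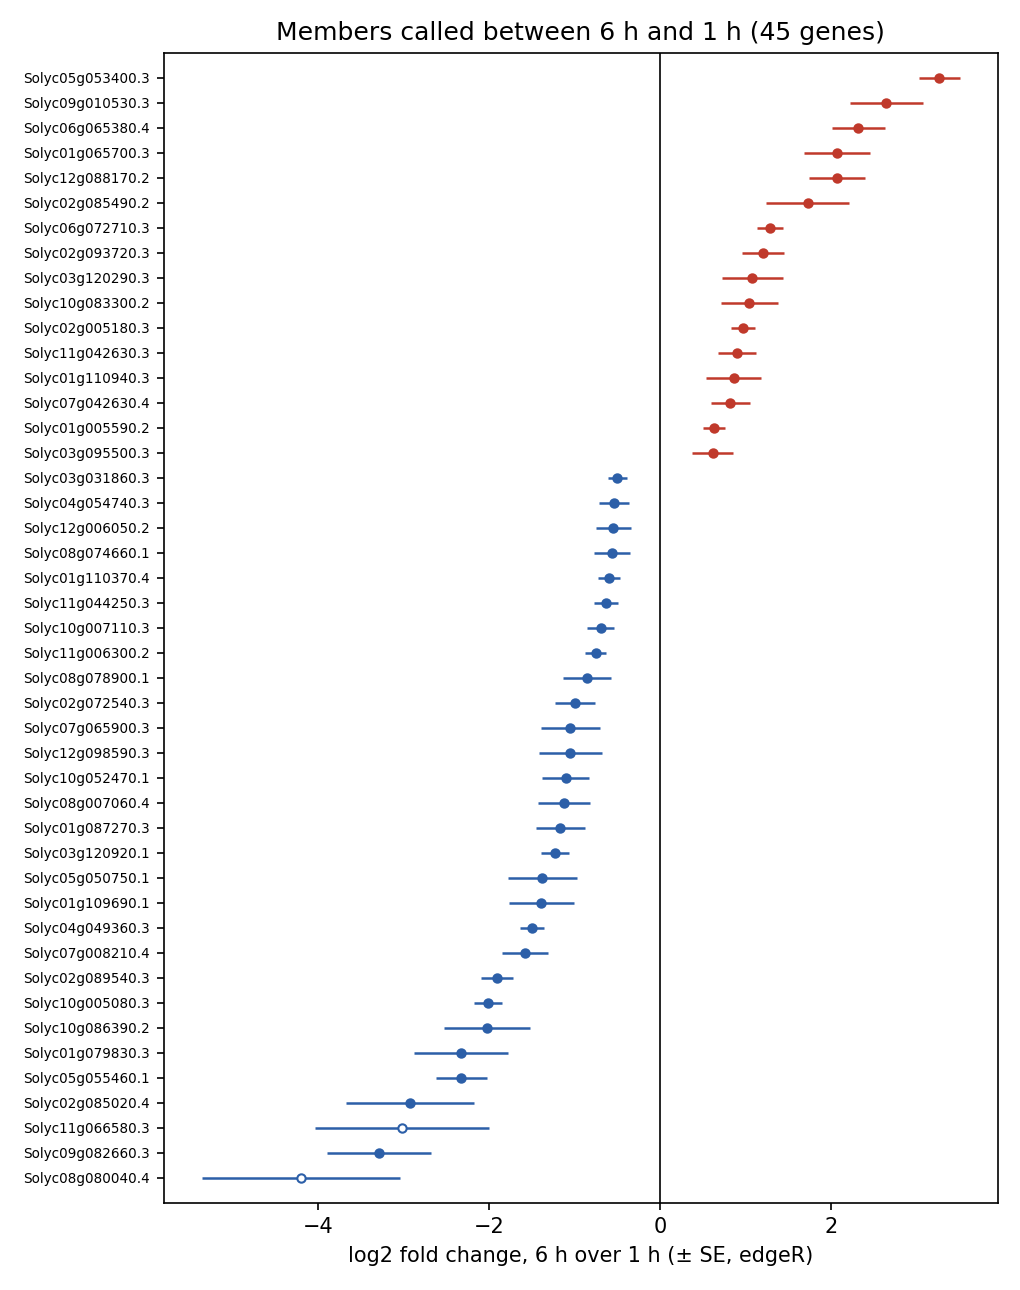
Log2 fold change of 6 h over 1 h of HS (points, with the SE of edgeR's fit as bars) for the 45 repressed genes called at an adjusted p-value below 0.05, ordered by size, with rises in red and falls in blue. Open points mark the genes with at most 3 counts in both 6 h libraries, Solyc08g080040.4 and Solyc11g066580.3, whose fitted change depends on the prior count. The 16 rises lie between 0.62 and 3.26.

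The levels of the genes that were lower at 6 h are likewise tied to the limit at 1 h and the call. Over these 29 genes the median level left was 17.4% of the 0 h mean at 1 h and 7.18% at 6 h, and in 19 of them the log2 fold change was -1 or below. Solyc05g055460.1 (chromosome 5, 67723791 to 67724378, minus strand) had 0.560 and 0.582 CPM at 6 h, against 2.95 and 2.81 CPM at 1 h and 19.8 and 13.2 CPM at 0 h. The change of 6 h over 1 h on the log2 scale was -2.33 ± 0.30 (adjusted p = 0.00020, edgeR), and the replicates of each HS time were nearly equal. In Solyc10g005080.3, the gene with the deepest combined fall, the change was -2.01 ± 0.17 (adjusted p = 1.9e-05). Solyc07g065900.3, among the most abundant, fell further by 1.05 on the log2 scale (SE 0.34, adjusted p = 0.025), and Solyc04g054740.3 fell by 0.54 (SE 0.18, adjusted p = 0.026).

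The largest further falls were mostly found in genes with few counts at 6 h. Solyc09g082660.3 (chromosome 9, 64787288 to 64790794, plus strand) had 5 and 1 counts at 6 h, against 27 and 20 counts at 1 h and 454 and 735 counts at 0 h. Its log2 fold change was -3.29 ± 0.61 (adjusted p = 0.0015, edgeR), and it was -4.78 without 6 h replicate 1 and -2.53 without 6 h replicate 2. Solyc02g085020.4 had 3 and 4 counts at 6 h, against 18 and 24 counts at 1 h and 369 and 823 counts at 0 h, with a change of -2.92 ± 0.75 (adjusted p = 0.0080). Its call was lost without 6 h replicate 1 (adjusted p = 0.053). Solyc01g079830.3 had 5 and 5 counts at 6 h, against 16 and 23 counts at 1 h and 155 and 276 counts at 0 h, with a change of -2.32 ± 0.55 (adjusted p = 0.0055). The groups of 6 h and 1 h did not overlap in any of these genes, as the rule for naming them required.

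For the called genes with at most 3 counts in both 6 h libraries, a ratio of summed counts is given in place of a fitted change. In Solyc08g080040.4 (chromosome 8, 64209129 to 64210989) it was 0.0426 for 6 h over 1 h, with an exact interval of 0.00102 to 0.270 at 95% confidence for counting error only. In Solyc11g066580.3 (chromosome 11, 55556086 to 55559921) it was 0.110, with an interval of 0.0121 to 0.477. The call of Solyc08g080040.4 (adjusted p = 0.011, edgeR) was lost without 6 h replicate 1 (adjusted p = 0.068) or 1 h replicate 2 (adjusted p = 0.052). That of Solyc11g066580.3 (adjusted p = 0.027) was lost without 6 h replicate 1, 6 h replicate 2 or 1 h replicate 2, with adjusted p-values between 0.10 and 0.17.

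**Figure D4:**
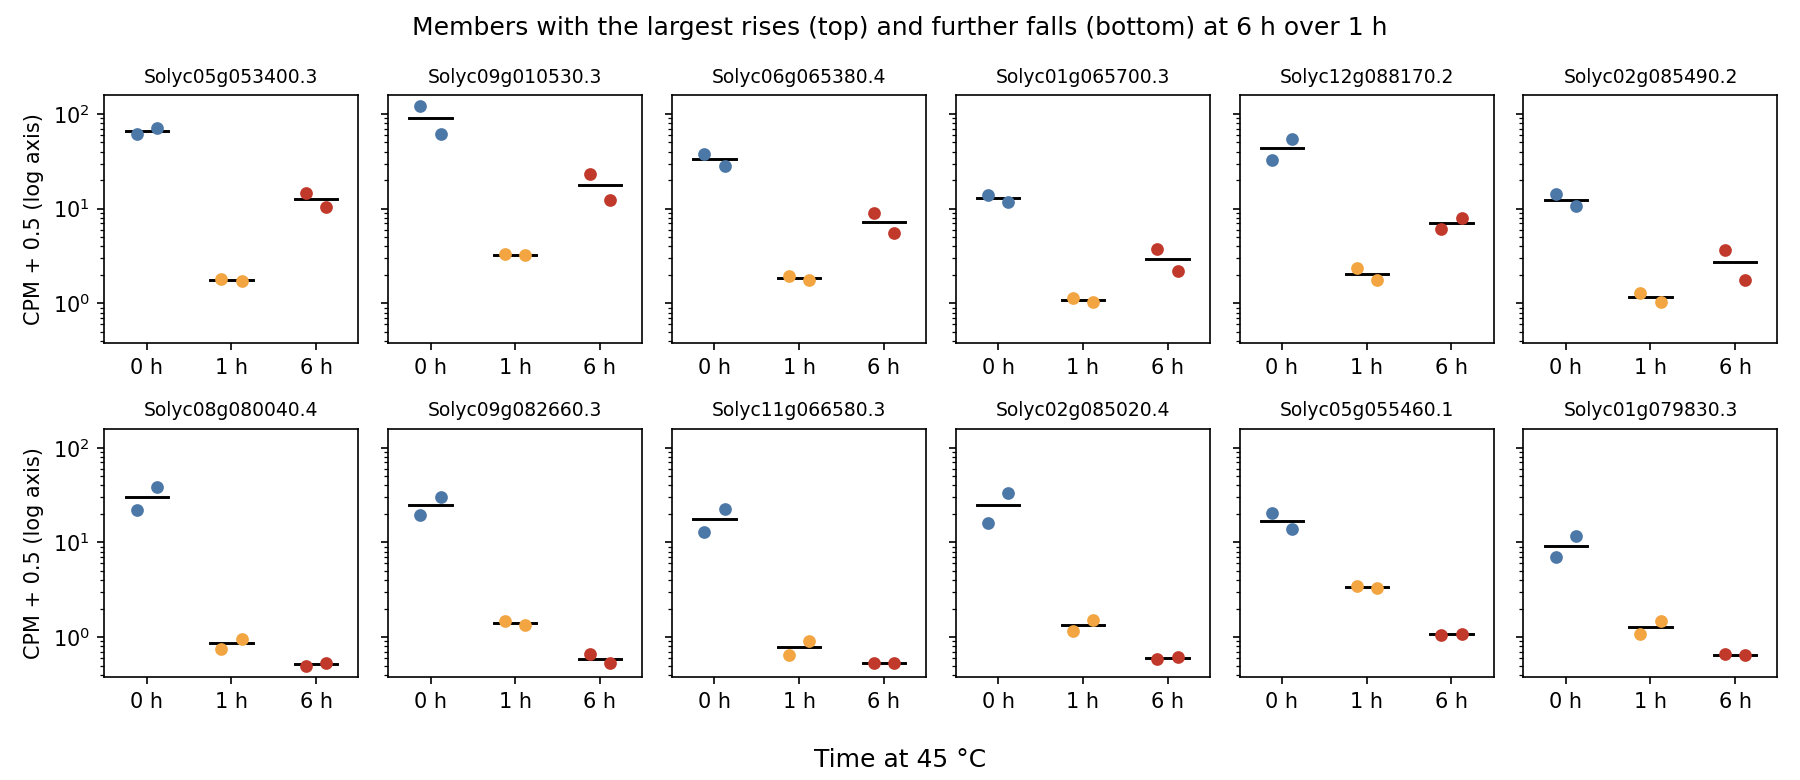
CPM + 0.5 (log axis) at 0, 1 and 6 h at 45 °C for the 6 repressed genes with the largest rises at 6 h over 1 h (top row) and the 6 with the largest further falls (bottom row). Points are the 2 libraries of a time, replicate 1 on the left, and bars are their means. In the top row the 6 h values stay below those of 0 h, as in Solyc05g053400.3 with 14.3 and 9.86 CPM at 6 h and 60.6 and 71.3 CPM at 0 h.

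Replicates of the repressed genes leaned in a common direction at 0 h and 6 h. At 0 h replicate 2 was below replicate 1 in 65 of the 92 genes (70.7%), against 49.6% of all tested genes, and the median log2 ratio of replicate 2 over replicate 1 was -0.18 against 0.00. At 6 h this held for 74 genes (80.4%), against 50.6% of all tested genes, with a median of -0.33 against -0.00. At 1 h replicate 2 was lower in 54 genes (58.7%), against 49.0% of all genes. The share with the lower value in 6 h replicate 2 was also high in the genes with a large fall at 1 h alone (80.4%) and at 6 h alone (77.5%). The share with the lower value in 0 h replicate 2 was 33.7% and 82.4% in these genes, in the same order. What set these leans was not tested.

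A minority of the genes stood in the opposite direction at 0 h. In 11 of the 92 genes (12%) 0 h replicate 2 was at least 1.5 times replicate 1 on the CPM + 0.5 scale, against 5.31% of all tested genes, while in 11 others (12%) replicate 1 was at least 1.5 times replicate 2, against 3.97%. The first group, chosen after its values were seen, included most of the deepest falls. Of the 13 genes with under 5% left at both HS times, 7 belonged to it and 1 to the second. In the 11 genes of the first group the level left had a median of 3.49% at 1 h and 1.27% at 6 h. It was 9.78% at 1 h and 9.94% at 6 h in the second group. In the 70 genes whose 0 h replicates were within 1.5 times, it was 14.6% at 1 h and 14.1% at 6 h. These levels rest on the 0 h libraries that also formed the groups, so nothing is read from their difference. In the first group, the largest ratio was that of Solyc02g085020.4, with 15.4 and 33 CPM at 0 h. Solyc05g045670.4 followed with 14.6 and 30.9 CPM, and Solyc02g081340.3 with 15.8 and 31.7 CPM. Replicate 2 was above replicate 1 in 6 of the 11 genes of the first group at 1 h and in 5 at 6 h. Among the genes with a large fall at 1 h alone, 0 h replicate 2 was at least 1.5 times replicate 1 in 30%, and among those with a large fall at 6 h alone in 1.60%.

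**Figure D5:**
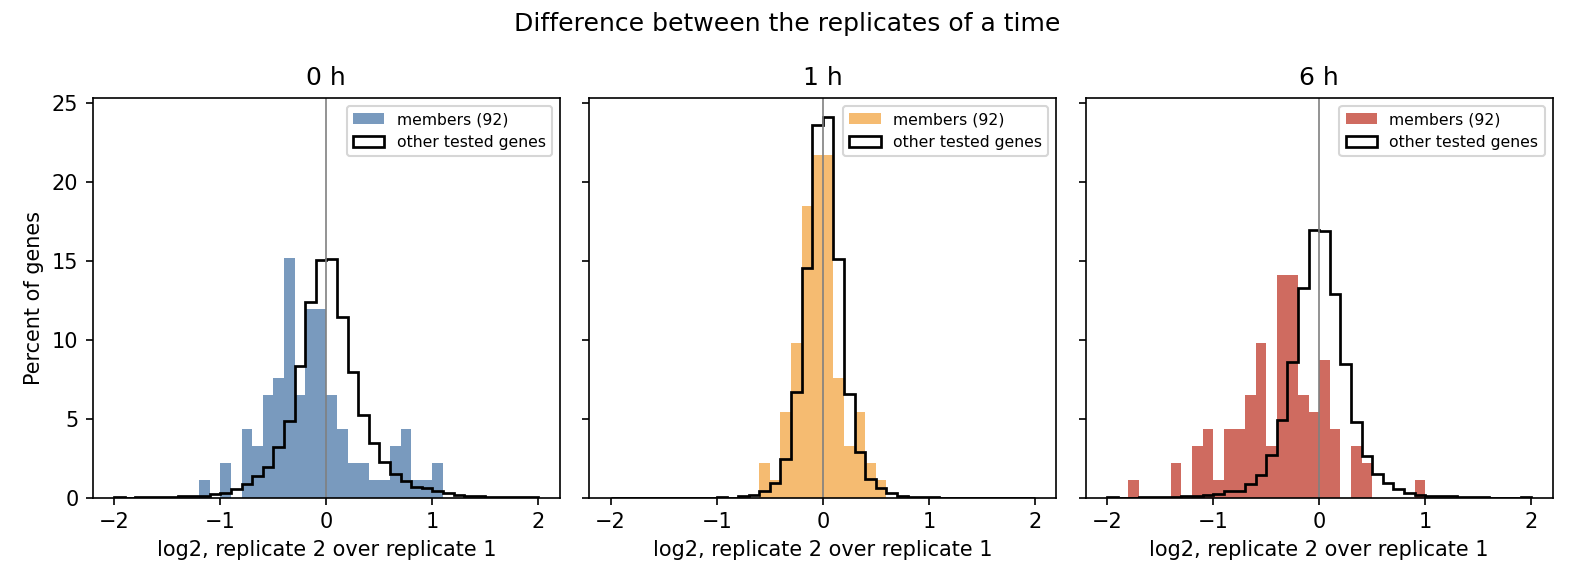
Log2 ratio of replicate 2 over replicate 1 (CPM + 0.5, values beyond 2 set to 2) at 0, 1 and 6 h, as percent of genes, for the 92 repressed genes (filled) and the other tested genes (black outline). The repressed genes lean to the left at 6 h (median -0.33) and at 0 h (median -0.18), while at 1 h both distributions lie near 0. At 0 h, 11 genes had replicate 2 at least 1.5 times replicate 1, and 11 had the reverse.

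The repressed genes were spread over all 12 chromosomes, from 4 genes on chromosome 11 to 14 on chromosome 1, which is 0.314% to 0.792% of the tested genes of a chromosome, with the highest share on chromosome 10. They had a median span of 2545 bp (159 to 20132 bp), against 3711 bp in the other tested genes, and 2547 bp and 2791 bp in the genes with a large fall at 1 h alone and at 6 h alone. The plus strand held 45 of them and the minus strand 47. Of neighbouring repressed genes, 3 pairs lay under 100 kb apart, and no expected number was computed to set beside this. A single pair was adjacent in the table, Solyc06g068970.3 and Solyc06g068980.4 on the minus strand of chromosome 6, with 269 bp between them (chosen after the values were seen). Solyc06g068970.3 had 45.9 and 44.6 CPM at 0 h, 8.70 and 8.72 CPM at 1 h, and 7.25 and 9.07 CPM at 6 h. Solyc06g068980.4 had 77.3 and 73.6 CPM at 0 h, 13.9 and 15 CPM at 1 h, and 18.8 and 14.3 CPM at 6 h. Neither was called between the HS times.

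The tested genes that flank the repressed genes were called in both directions. Of 182 such genes, 74 (40.7%) were called lower at 1 h than at 0 h and 51 (28.0%) higher, against 31.3% lower and 32.2% higher over all tested genes. At 6 h 64 (35.2%) were called lower than at 0 h and 43 (23.6%) higher, against 28.0% lower and 30.9% higher over all tested genes, all with TMM scaling, on which the share called lower at 6 h depends as given above. The median log2 fold change of the flanking genes was -0.17 at 1 h and -0.10 at 6 h, against -0.00 and 0.03 over all tested genes. A fall of at least 2 was met by 9 of them at 1 h (4.95%, against 2.75% of all tested genes) and by 5 at 6 h (2.75%, against 1.46%). Flanking genes are not independent of each other, and both sets of calls share the 0 h libraries.

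Overlap with another gene touched 4 of the repressed genes, each with a gene on the opposite strand, against 4.91% of all tested genes that overlap another gene. Counting took strand into account. Solyc08g080040.4 shared 276 bp with Solyc08g080030.4, which had 36.7 and 33.8 CPM at 0 h, 30.2 and 33.1 CPM at 1 h, and 38.3 and 31.5 CPM at 6 h. Solyc02g085020.4 shared 195 bp with Solyc02g085030.4, which had 24.2 and 25.7 CPM at 0 h, 8.85 and 10.1 CPM at 1 h, and 35.1 and 40.9 CPM at 6 h. These partners did not hold the near-absence seen in the repressed genes at 6 h. Solyc08g007060.4 shared 586 bp with Solyc08g007070.2, a partner of low level that was higher at 6 h. It had 0.334 and 0.562 CPM at 0 h, 0.590 and 0.964 CPM at 1 h, and 1.96 and 1.89 CPM at 6 h. The partner of Solyc11g044250.3 was not among the tested genes.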

How the data were processed

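RNA of tomato leaves was sequenced in 6 libraries, as stranded single reads of 75 bp from 2 µg of RNA. The deposited values are raw counts per gene. Counting by the authors used, per the file headers, featureCounts 2.0.0 with the M82 gene models 1.1.0, reverse-stranded, at a mapping quality of at least 30, with multi-mapped and multi-overlapping reads allowed. The headers also name a removal of PCR duplicates before counting, whose effect on the levels was not tested. The gene length given is the span, so intronic reads count. The submitters' processing notes name Trimmomatic 0.38, Bowtie2 2.3.5 and SAMtools 1.9. By their column headers, the counts used here came from Bowtie alignments, whereas the study's methods name STAR for RNA-seq. Whether reads or fragments were counted remains unsettled. Near-identical copies can be undercounted at this mapping quality. Start, end and length, which the authors deposited as other columns, gave positions.

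A gene was kept when 2 or more libraries held 50 or more counts (19123 of 35603). TMM-scaled CPM and two-sided quasi-likelihood tests of all 6 libraries came from edgeR 4.0.16 in R 4.3.3, with Benjamini-Hochberg adjustment over all tested genes and a threshold of 0.05. The log2 fold change over the square root of F gave its SE. The fit had 3 residual and 5.42 prior degrees of freedom. Alternatives were DESeq2 1.42.0, other scalings, filters, limits and pseudocounts, a replicate block, and each library left out. The procedure was tested on simulated data.

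The genes, lists and rules were chosen with earlier results of these data known. Named genes were the 10 with the highest CPM and the 5 with the highest CPM per kb at 0 h. Also named were the 10 with the lowest sum of both changes among those with over 3 counts in every library. The 3 highest at 0 h among those with at most 3 counts at a heated time were added. For 6 h against 1 h, the 6 largest rises and 6 largest falls were named among called genes whose CPM values did not overlap. Genes beside each limit were named as well. Planned lists of pathways and cell type markers and a promoter search could not be used, since no names or sequences could be joined to the identifiers. The p-values set differences between times against the spread between libraries of the same time, estimated partly across genes. Per the study, each biological replicate was a pool of seedlings, so that spread between single plants was not measured.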

Additional observations from a re-analysis of the deposited data

Results flagged for a closer look

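The HS times differed by a direct test in part of the repressed genes. In edgeR's quasi-likelihood test of 6 h against 1 h, 16 genes rose and 29 fell at 6 h. Of all tested genes 34.7% were called higher and 31.7% lower, against 17.4% and 31.5% of the repressed genes. Nothing is read from these shares, since the choice of genes restricts how far the HS times could differ. The log2 fold change was 3.26 in Solyc05g053400.3, 2.64 in Solyc09g010530.3, 2.31 in Solyc06g065380.4, 2.06 in Solyc01g065700.3, 2.06 in Solyc12g088170.2 and 1.72 in Solyc02g085490.2. It was -3.29 in Solyc09g082660.3, -2.92 in Solyc02g085020.4, -2.33 in Solyc05g055460.1 and -2.32 in Solyc01g079830.3. The ratio of summed counts of 6 h over 1 h was 0.0426 in Solyc08g080040.4 and 0.110 in Solyc11g066580.3. With 2 libraries per time, no group was large enough to look for single outlying samples.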

How the results depend on the processing

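The number of repressed genes was 271 with a limit of -1.5 and 38 with a limit of -2.5. Leaving out each library in turn gave 75 to 130 genes. Other settings gave 64 genes (each replicate taken alone) to 124 (fold change fitted by edgeR), with 71 of the 92 kept under scaling by library size only. Between 6 h and 1 h, an adjusted p-value below 0.01 gave 10 genes higher and 18 lower, and library size as the only scaling gave 28 higher and 17 lower. Leaving out each library gave 10 to 22 genes higher and 20 to 34 lower. DESeq2 gave 14 higher and 29 lower. For all genes, scaling by library size left 3379 called lower at 6 h against 0 h. The cause of these shifts was not tested. Of the 12 genes named for 6 h against 1 h, none reversed under the alternatives run. Calls were lost in 8 of their fits, all with a library left out. The replicate number as a block gave 16 genes higher and 30 lower, of which 15 and 29 were shared. Replicate differences correlated by -0.096 (0 h with 1 h), -0.022 (0 h with 6 h) and 0.20 (1 h with 6 h) over genes, so the numbers were not taken to pair samples. The alternatives for pathway lists and promoter motifs were not run. A count of 0 in a library allows a level of up to 0.0872 to 0.126 CPM, by library.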
